A study of Mus musculus with 6 samples.

Results

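Rab proteins are small GTPases that mark the membranes of the cell, and 53 of their genes were followed here in mouse platelet RNA. The genes were chosen by their names. A row of the deposited table was taken as a member when its symbol consisted of Rab, a number and at most one further letter and digit, which 53 of 14975 rows met. Expression was given as FPKM, a read number set in relation to the length of the gene and the size of the library, for 3 control and 3 pre-AML libraries. Of the 53 genes, 33 had a mean of at least 1 FPKM over the 6 libraries and were tested, and 20 lay below that level.

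Platelets came from the peripheral blood of C57BL/6 background mice, and the labels call the groups WT and AML. According to the methods of the study, controls had been irradiated and given normal bone marrow, so the WT group is a transplant control and not an untouched animal. The other group, called pre-AML here, had been irradiated sub-lethally and given GFP-positive cells that carried a retroviral MLL-AF9 oncogene. Its blood was taken 1 week after transplantation. Recipients were females aged 8 to 12 weeks. CD45-positive leukocytes and Ter119-positive erythroid cells were depleted before RNA was prepared with the SMART-Seq2 protocol. Whether the platelets descended from donor or from surviving host megakaryocytes was not measured. The labels mention pools of 3 to 4 mice and 2 replicates per group, whereas the methods give 3 independent mice and the table holds 3 libraries per group. If the libraries are not separate animals, the p-values measure only the spread between libraries.

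Each Rab protein switches between a GTP-bound state, in which it sits on one kind of membrane and recruits effectors, and a GDP-bound state that is held soluble in the cytosol. Exchange factors (GEFs) load GTP, GTPase-activating proteins (GAPs) end the cycle, and a geranylgeranyl lipid added with the help of an escort protein anchors the GTPase. In platelets, Rab proteins are best known for the making and release of granules. Rab27b is required for dense granule number and secretion in mice, and Rab32 and Rab38 act in the biogenesis of lysosome-related organelles, to which dense granules belong. A platelet has no nucleus, so its RNA is largely what the megakaryocyte packed into it.

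The libraries held between 11936006 and 17779027 reads on the listed genes, as estimated from the FPKM values and gene lengths. Platelet markers were present, with all 14 of the list above 0 in every library and summed levels of 91382 to 115273 FPKM in control against 62823 to 93957 FPKM in pre-AML libraries. Pre-AML 3 stood apart from the others, at 41.9 on a first principal component that held 70.2% of the variance, where the other 5 libraries lay between -12.7 and -2.12. All 14 monocyte and macrophage markers and all 10 B cell markers in the table exceeded every control in pre-AML 3. In pre-AML 2, 10 of these 14 and 8 of these 10 did so, and in pre-AML 1, 4 and 0. Of the 10 T and NK cell markers in the table, 7, 5 and 9 exceeded every control in pre-AML 1 to 3. The summed B cell level was 2.66 to 2.95 FPKM in controls and 1.60 to 309 FPKM in pre-AML libraries. The monocyte and macrophage sum was 2386 to 2616 FPKM in controls and 2342 to 3580 FPKM in pre-AML libraries, most of it from Lyz2, with Cd14 at 0 in all controls. Of the other lists, T and NK cell markers summed to 19.1 to 28.9 FPKM in controls and 33.6 to 37.5 FPKM in pre-AML libraries, erythroid markers to 2365 to 2664 and 2386 to 2999 FPKM, and neutrophil and progenitor markers to 3.34 to 5.50 and 1.70 to 5.11 FPKM. Pax5, Cd3g, Ncr1, Mpo, Elane and Ly6g were at 0 in all controls. The log2 fold changes of the Rab genes described below are given with and without pre-AML 3. Values without pre-AML 3 still include pre-AML 2, where the B cell sum was 29.4 FPKM, so they are not free of leukocyte markers.

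Rab11a, the GTPase of the recycling endosome, held the largest share of Rab transcripts in control platelets. It had 372.9 ± 23.0 FPKM (SD, n = 3), 41.2% of the summed level of all 53 members, and ranked at place 129 of all genes in the table. Rab10, which directs vesicles to the cell surface, followed with 87.9 ± 5.76 FPKM and Rab6a, a regulator of transport at the Golgi, with 77.7 ± 2.81 FPKM (SD, n = 3 each). In this order each of these genes stood above the next without overlap between its control libraries and those of the next, down to Rab1b at 44.8 ± 3.22 FPKM (SD, n = 3). Rab11b, Rab27b, Rab5c and Rab8b came next with control means between 33.9 and 38.0 FPKM and could not be put in order, since the control ranges of neighbours overlapped. These 8 genes made up 80.1% of the family's summed level. Of the 32 neighbouring pairs among the 33 highest members, 7 were separate and 25 overlapped.

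The summed level of the family was 926.8, 898.1 and 891.6 FPKM in control 1 to 3, and 872.7, 773.7 and 598.1 FPKM in pre-AML 1 to 3. The groups did not overlap, and pre-AML 1 was just below the lowest control. The place of pre-AML 3 depends on the scaling, since its FPKM had been divided by 1.31 times its recovered reads. Scaled to recovered reads, the sums were 911.5, 910.7 and 885.9 in control 1 to 3 and 857.7, 783.1 and 784.9 in pre-AML 1 to 3, so that pre-AML 3 lay beside pre-AML 2. The summed platelet markers were also lowest in pre-AML 3, at 62823 FPKM, and their part in the Rab sum was not tested. Rab11a alone carried much of this, and its share of the sum was 41.2% ± 1.80 in control against 36.9% ± 5.04 in pre-AML libraries (SD, n = 3 each). Without Rab11a, the sum was 532.6 ± 9.62 FPKM and 467.1 ± 52.0 FPKM (SD, n = 3 each). In bulk RNA of this kind, fewer platelets rich in a transcript and less of it per platelet cannot be told apart.

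**Figure D1:**
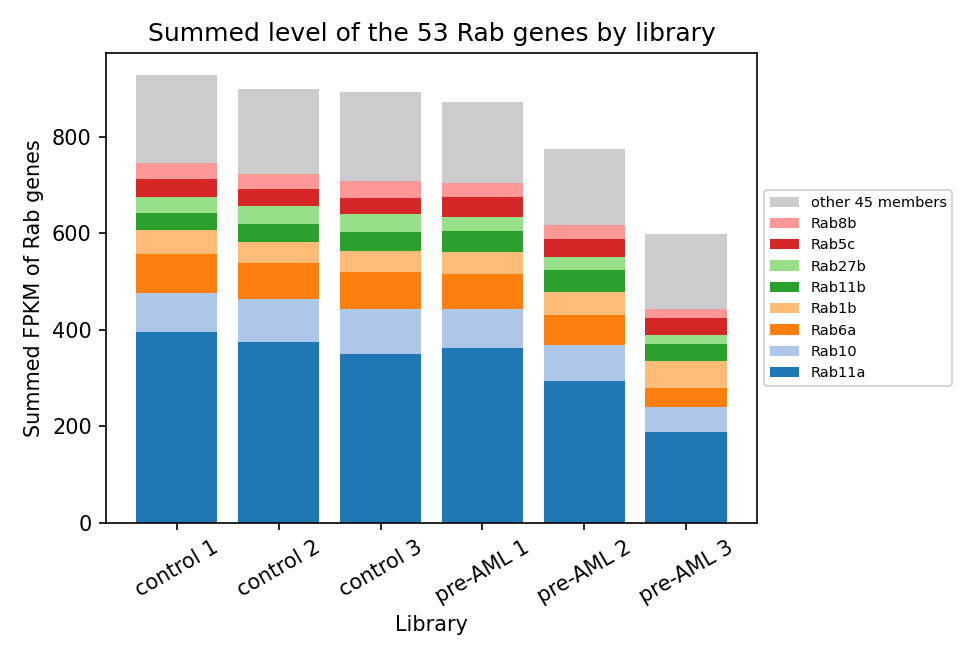
Summed FPKM of the 53 Rab genes in each library, with the 8 genes highest in control platelets drawn as separate segments and the remaining members in grey. The bars lie between 891.6 and 926.8 FPKM in the controls and at 872.7, 773.7 and 598.1 FPKM for pre-AML 1 to 3.

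No Rab gene passed the test between pre-AML and control platelets. Of the 33 tested, 0 had an adjusted p under 0.05 in limma-trend on log2(FPKM + 1) with Benjamini-Hochberg adjustment over all 4412 tested genes, where 0.0227% of all genes did. The smallest adjusted p of a member was 0.522. At an unadjusted p under 0.05, 4 members were lower and 0 were higher in pre-AML platelets, against 6.53% and 2.56% of all tested genes. The share of members on the lower side was 12.1%. limma-voom on recovered reads also gave 0 members after adjustment, with 7 lower and 1 higher at an unadjusted p under 0.05, where 5.89% of all genes were lower and 5.25% higher. After scaling by recovered reads alone, the split was again 7 lower and 1 higher, against 5.67% and 5.62% of all genes.

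Most members stood lower in pre-AML platelets, none of them past the test. A log2 fold change below 0, that is, a lower mean of log2(FPKM + 1) in pre-AML platelets, was found for 23 of 33 members (69.7%), while 58.5% of all tested genes had one. With scaling to recovered reads these shares were 57.6% and 41.8%. The median log2 fold change was -0.21 for the members and -0.055 for all tested genes. Another scaling moves both medians together. With scaling to recovered reads the median of all genes moved up by 0.11 and with limma-voom by 0.13, and the members then lay 0.18 below the median of all genes in each case, compared with 0.15 below it in the deposited scaling. In single libraries, the median log2 ratio of the members to the control mean was -0.12, -0.22 and -0.39 for pre-AML 1 to 3, and that of all tested genes was -0.028, -0.027 and -0.17. All 3 pre-AML libraries lay below all controls for 9 members (27.3%), compared with 12.8% of all tested genes, and above all controls for 0 of the 33 tested members, compared with 6.14%.

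**Figure D2:**
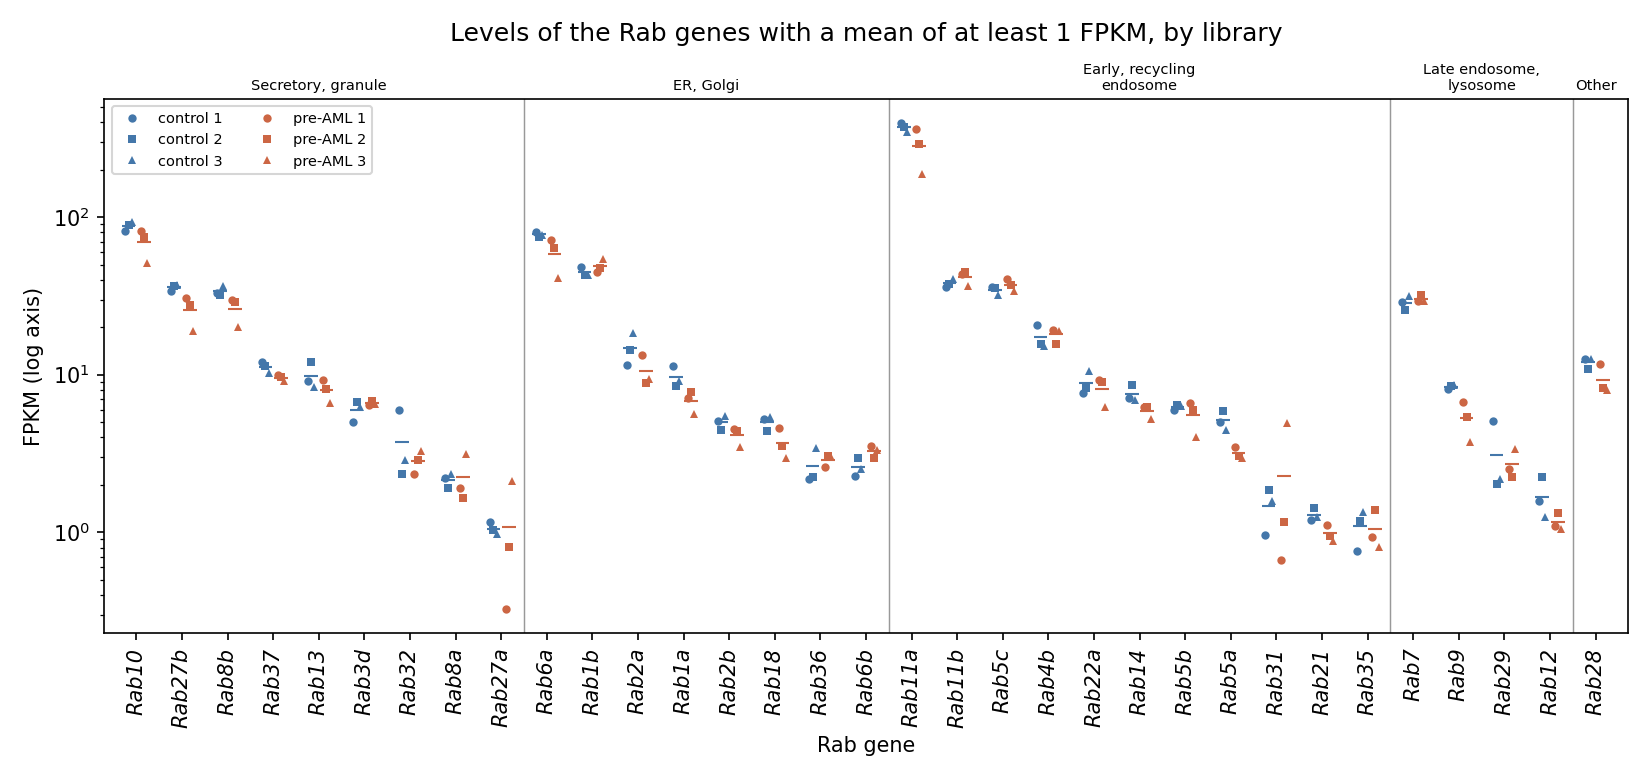
FPKM of each Rab gene with a mean of at least 1 FPKM on a log axis, grouped by the compartment where the protein acts, with one point per library and a line at each group mean (n = 3). Points of the groups overlap for most genes, and the pre-AML points lie below all controls for 9 of them, among these Rab27b, Rab9, Rab5a and Rab1a.

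Among the Rab proteins of secretory vesicles and granules, 9 of 13 genes were tested. Of these, 7 had a log2 fold change below 0 (77.8%, against 58.5% of all tested genes). At an unadjusted p under 0.05 in limma-trend, 1 was lower (11.1%, against 6.53% of all tested genes). This gene was Rab27b, which acts in dense granule secretion. It had 34.0, 36.5 and 36.9 FPKM in control 1 to 3 and 30.5, 27.5 and 19.0 FPKM in pre-AML 1 to 3. The groups did not overlap, and pre-AML 3 was lowest. The log2 fold change was -0.49 (standard error, SE, 0.18, limma-trend adjusted p = 0.522), and it was -0.29 without pre-AML 3. Its close relative Rab27a, which drives secretion of lysosome-related organelles in many blood cells, was near the lower limit of the test. It had 1.16, 1.03 and 0.973 FPKM in the controls and 0.326, 0.806 and 2.12 FPKM in the pre-AML libraries. Its pre-AML values lay on both sides of the controls, and the sign of its log2 fold change of -0.070 turned with scaling to recovered reads, to 0.026. Without pre-AML 3 it was -0.41.

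Rab8b and Rab10, both of which direct vesicles to the plasma membrane, had log2 fold changes of -0.38 and -0.37 (SE 0.18 and 0.19, limma-trend adjusted p = 0.522 and 0.526). Rab8b had 33.1, 32.1 and 36.3 FPKM in controls and 29.8, 28.9 and 19.9 FPKM in pre-AML libraries, without overlap. For Rab10, the controls had 81.7, 88.8 and 93.2 FPKM, and pre-AML 1, at 82.2 FPKM, lay within their range, above pre-AML 2 at 74.7 FPKM and pre-AML 3 at 50.8 FPKM. Without pre-AML 3 these log2 fold changes were -0.20 and -0.16. Rab8a, the paralogue of Rab8b, had 2.15 ± 0.226 FPKM in control against 2.23 ± 0.787 FPKM in pre-AML platelets (SD, n = 3 each), a log2 fold change of 0.0091 with a 95% confidence interval from -0.44 to 0.46, and both quantile normalization and the removal of pre-AML 3, which gave -0.18, turned its sign. Rab3d, a GTPase of regulated exocytosis, had 5.99 ± 0.871 and 6.58 ± 0.248 FPKM (SD, n = 3 each), a log2 fold change of 0.12 with an interval from -0.20 to 0.45, or 0.13 without pre-AML 3.

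The pair that acts in the formation of lysosome-related organelles was weakly expressed. Rab32 had 5.94, 2.34 and 2.87 FPKM in the controls and 2.35, 2.89 and 3.28 FPKM in the pre-AML libraries. Control 1 was far above the other 5 libraries. Its log2 fold change of -0.23 (95% confidence interval from -0.84 to 0.38) became 0.087 without control 1 and -0.31 without pre-AML 3. Rab38 was below the test limit, with 0, 6 and 18 reads in controls and 3, 0 and 0 reads in pre-AML libraries. Rab4a, a GTPase of rapid recycling that has been linked to platelet granule release, was also too low to test, with 0.582, 0.283 and 0.0478 FPKM in controls and 0.471, 0.490 and 0.146 FPKM in pre-AML libraries. Its paralogue Rab4b, at 17.3 ± 3.08 FPKM in controls (SD, n = 3), was measured at a higher level, although 65.0% of its exon bases are shared with the annotated gene Gm21983, and reads from the overlap cannot be assigned with certainty.

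For the Rab proteins of the endoplasmic reticulum and Golgi, 8 of 16 genes were tested. A log2 fold change below 0 was found for 5 (62.5%), near the 58.5% of all tested genes. At an unadjusted p under 0.05 in limma-trend, 1 was lower (12.5%, against 6.53% of all tested genes). Rab1a, which acts in transport from the endoplasmic reticulum to the Golgi, had 11.4, 8.44 and 9.11 FPKM in controls and 7.08, 7.71 and 5.65 FPKM in pre-AML libraries. The highest pre-AML library was just below the lowest control, and the log2 fold change was -0.44 (SE 0.16, limma-trend adjusted p = 0.522), or -0.33 without pre-AML 3. Rab1b, which has the same function, had 48.6, 42.9 and 43.1 FPKM in controls and 44.8, 47.7 and 54.1 FPKM in pre-AML libraries. Its log2 fold change was 0.12, with a 95% confidence interval from -0.19 to 0.43. It was 0.045 without pre-AML 3, and it turned to -0.092 once length and GC trends were taken out of every library.

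Rab6a had 80.7, 75.1 and 77.3 FPKM in controls and 71.7, 63.3 and 41.1 FPKM in pre-AML libraries. Each pre-AML value was below every control, and the log2 fold change was -0.44 (SE 0.20, limma-trend adjusted p = 0.522), or -0.20 without pre-AML 3. Some of its reads may belong to Mrpl48 on the opposite strand, which shares 23.2% of the exon bases of Rab6a. Rab6b, at 2.59 ± 0.345 FPKM in control against 3.26 ± 0.290 FPKM in pre-AML platelets (SD, n = 3 each), had the highest log2 fold change of the tested members, 0.25, with an interval from -0.084 to 0.58, or 0.24 without pre-AML 3. Rab2a and Rab18, which act at the Golgi and at the endoplasmic reticulum and lipid droplets, had log2 fold changes of -0.45 and -0.37 with overlapping libraries, and -0.39 and -0.26 without pre-AML 3.

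In the group of early and recycling endosomes, 11 of 14 genes were tested. A log2 fold change below 0 was found for 7 (63.6%), near the 58.5% of all tested genes. At an unadjusted p under 0.05 in limma-trend, 1 was lower (9.09%, against 6.53% of all tested genes). Rab5a, a regulator of early endosome fusion, had 5.01, 5.92 and 4.44 FPKM in controls and 3.49, 3.05 and 2.95 FPKM in pre-AML libraries. These values did not overlap, and the 3 pre-AML libraries lay close together. Its log2 fold change was -0.55 (SE 0.15, limma-trend adjusted p = 0.522) and -0.51 without pre-AML 3. Its paralogues, which have the same role, had intervals that included 0. Rab5c had 34.4 ± 2.24 FPKM in control against 37.3 ± 3.07 FPKM in pre-AML platelets (SD, n = 3 each), a log2 fold change of 0.11 with an interval from -0.19 to 0.41, or 0.17 without pre-AML 3. For Rab5b the log2 fold change was -0.17, with an interval from -0.58 to 0.23, and 0.0075 without pre-AML 3.

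Rab11a had 395.0, 374.7 and 349.1 FPKM in controls and 361.5, 293.2 and 188.4 FPKM in pre-AML libraries. Pre-AML 1 lay within the control range and the other two below it. The log2 fold change was -0.46 (SE 0.23, limma-trend adjusted p = 0.522) and -0.19 without pre-AML 3. Rab11b, which shares the function of Rab11a, had 35.8, 37.5 and 40.5 FPKM in controls and 43.8, 44.9 and 36.4 FPKM in pre-AML libraries, a log2 fold change of 0.13 with an interval from -0.19 to 0.45, or 0.22 without pre-AML 3. Rab31, which acts between the trans-Golgi network and endosomes, was spread most widely. It had 0.961, 1.85 and 1.59 FPKM in controls but 0.670, 1.16 and 4.97 FPKM in pre-AML 1 to 3, so that its log2 fold change was 0.19 with and -0.36 without pre-AML 3. In pre-AML 3 the markers of monocytes, macrophages and B cells were high as well, and their part in this value was not tested.

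Of the genes for late endosomes, lysosomes and autophagy, 4 of 6 were tested, too few for a share to mean much. A log2 fold change below 0 was found for 3, where 58.5% of all tested genes had one. At an unadjusted p under 0.05 in limma-trend, 1 was lower, where 6.53% of all tested genes were. This was Rab9, which returns receptors from late endosomes to the Golgi. It had 8.13, 8.49 and 8.55 FPKM in controls and 6.75, 5.38 and 3.72 FPKM in pre-AML libraries. The controls lay within a narrow range, and all pre-AML libraries lay below it. The log2 fold change of -0.61 (SE 0.19, limma-trend adjusted p = 0.522) was the lowest of the family, and it was -0.42 without pre-AML 3. Rab7, the main GTPase of late endosomes and lysosomes, had 28.9, 25.8 and 31.5 FPKM in the controls and 29.2, 31.9 and 29.4 FPKM in the pre-AML libraries. Its log2 fold change was 0.071 with an interval from -0.23 to 0.38, or 0.089 without pre-AML 3.

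**Figure D3:**
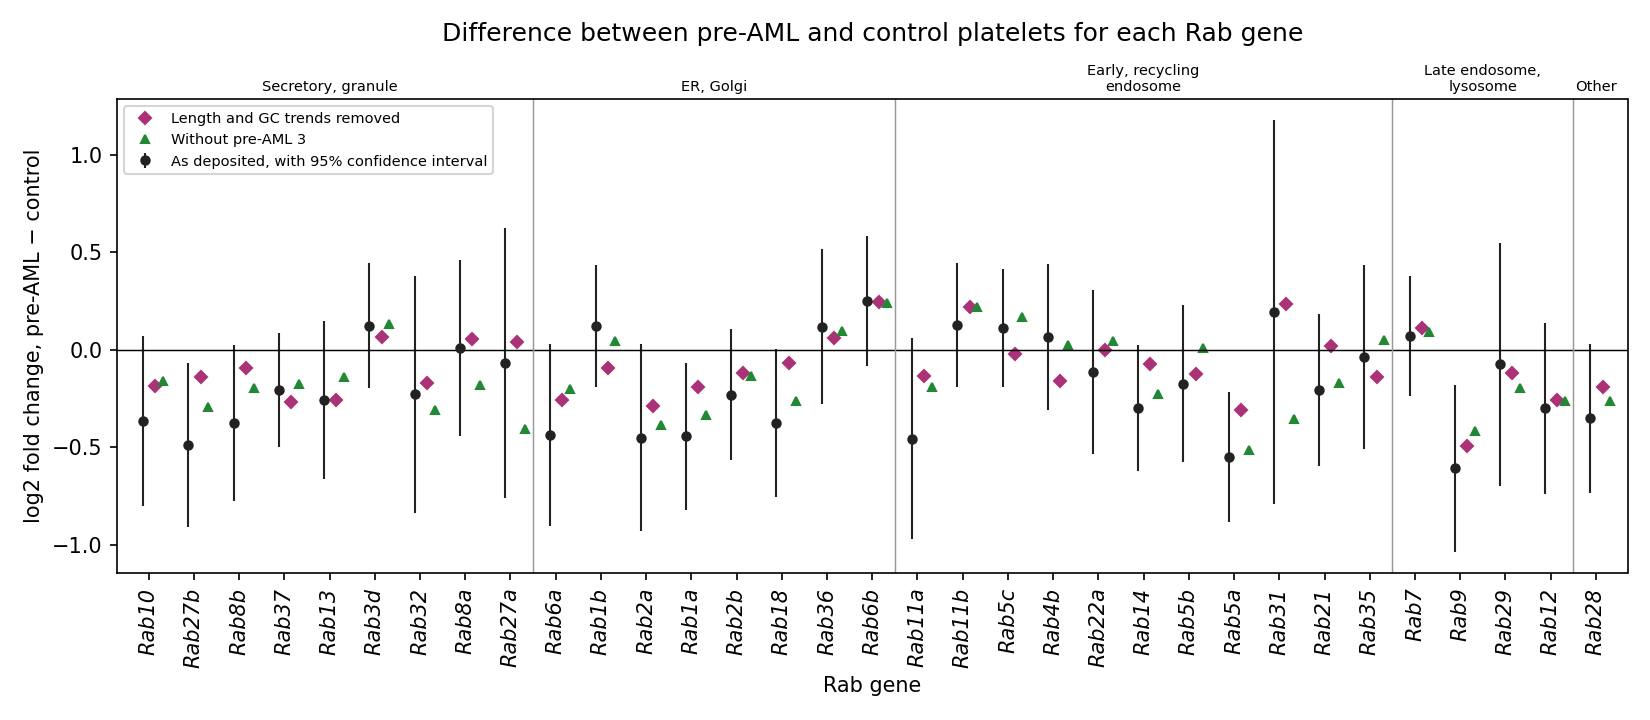
log2 fold change (pre-AML minus control) of each tested Rab gene, with its 95% confidence interval from limma-trend (circles and bars), after length and GC trends were taken out of every library (diamonds) and without pre-AML 3 (triangles). The intervals of Rab5a, Rab9, Rab1a and Rab27b lie below 0 before adjustment over all genes, and with the trends removed these genes move to -0.31, -0.49, -0.19 and -0.14.

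Paralogues of similar function were set against each other within each library, a ratio that does not depend on how libraries are scaled. The FPKM of the first gene of a pair was divided by that of the second for 8 pairs, and the log2 ratios of the groups were compared with exact two-sided permutation tests, in which 3 against 3 libraries can give no p below 0.1. In 5 of 8 pairs all pre-AML ratios lay below all control ratios, each with p = 0.1 from the exact test and an adjusted p of 0.16 over the 8 pairs. The order of the genes within a pair followed neither name nor level, so a direction shared by the pairs is not a result of its own. Rab5c is the second gene of both Rab5 pairs, which are therefore not independent. The ratio of Rab5a to Rab5c was 0.140, 0.166 and 0.139 in controls and 0.0866, 0.0818 and 0.0863 in pre-AML libraries. The pre-AML ratios lay close together, and the difference of the log2 means was -0.80, or -0.81 without pre-AML 3.

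For Rab6a to Rab6b, the ratio was 35.3, 25.3 and 30.7 in controls and 20.3, 21.4 and 12.4 in pre-AML libraries. The log2 difference was -0.78 with and -0.53 without pre-AML 3. The ratio of Rab1a to Rab1b was 0.234, 0.197 and 0.211 in controls and 0.158, 0.162 and 0.104 in pre-AML libraries, and that of Rab11a to Rab11b was 11.02, 9.98 and 8.61 against 8.25, 6.54 and 5.18. Both ratios were lower in all pre-AML libraries, with log2 differences of -0.62 and -0.59, or -0.42 for each without pre-AML 3. The fifth pair, Rab5b to Rab5c, differed by -0.32, or by -0.17 without pre-AML 3. Rab2a to Rab2b, Rab8b to Rab8a and Rab27b to Rab27a overlapped between the groups (exact permutation test, p = 0.5, 0.9 and 0.8). Gm43766 on the opposite strand shares 59.3% of the exon bases of Rab2b, and reads from the overlap cannot be assigned with certainty. Rab27b to Rab27a varied most, from 8.94 in pre-AML 3 to 93.3 in pre-AML 1, against 29.3 to 37.9 in controls.

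**Figure D4:**
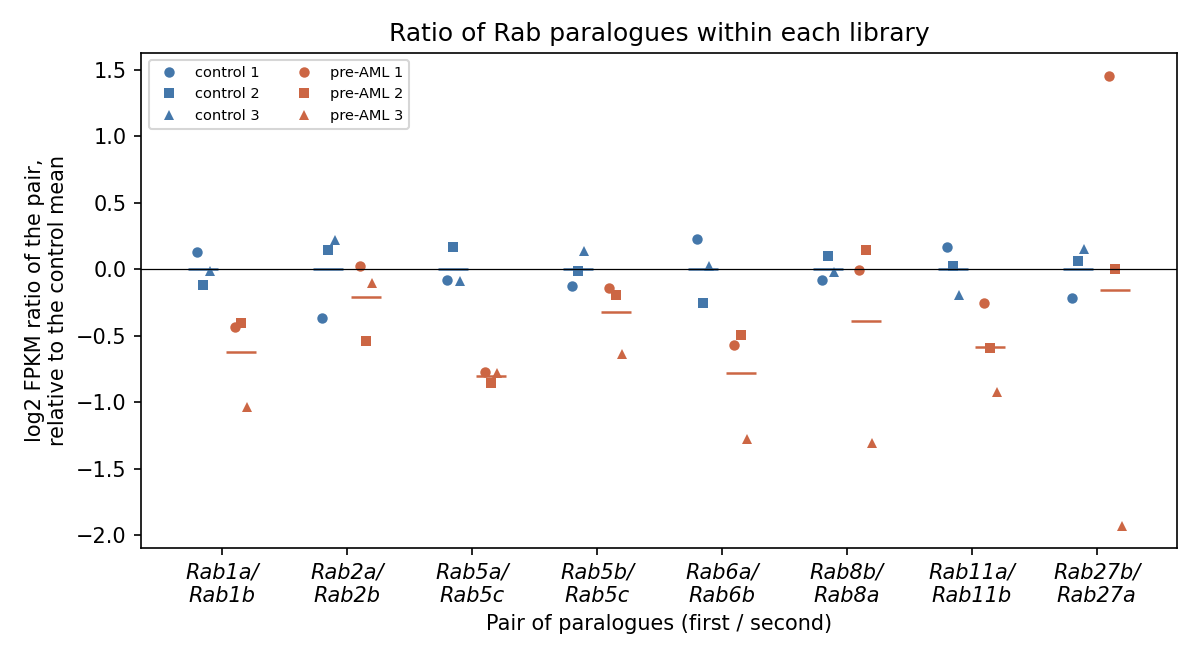
log2 of the FPKM ratio of paralogous Rab genes in each library, relative to the mean of the controls, with a line at each group mean (n = 3). Pre-AML points lie below all control points for Rab1a/Rab1b, Rab5a/Rab5c, Rab5b/Rab5c, Rab6a/Rab6b and Rab11a/Rab11b, and overlap with them for the other pairs.

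The members with lower levels in pre-AML platelets were mostly those with AT-rich transcripts. GC content was taken from the longest protein-coding transcript of GENCODE release M21. It was 37.9% for Rab27b, 39.5% for Rab11a, 42.0% for Rab1a and 42.3% for Rab5a, but 58.9% for Rab1b, 54.7% for Rab5c and 59.2% for Rab4b. Over the 33 tested members, which share libraries and are not independent replicates, the Spearman correlation of GC content with the log2 fold change was 0.79, or 0.60 without pre-AML 3. It was 0.56 over 4397 tested genes, or 0.45 without pre-AML 3. Of 24 members with a GC content below the median of all tested genes, 50.3%, 20 had a log2 fold change below 0 (83.3%), and of all genes below it 79.3% did. Above the median it was 3 of 9 members and 37.6% of all genes. The first genes of the 8 pairs all have less GC than the second.

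GC content was related to the values of whole libraries in the same way. Across genes, the Spearman correlation of GC content with a gene's deviation from its mean over the 6 libraries was -0.30, -0.40 and -0.32 in control 1 to 3 and -0.045, 0.31 and 0.50 in pre-AML 1 to 3. This trend runs with the groups, and for a single gene the trend and the group cannot be told apart. Once length and GC trends were taken out by loess, 1 member was lower at an unadjusted p under 0.05, namely Rab9 at -0.49, a share of 3.03% against 3.68% of all genes. The median log2 fold change of the members was then -0.12, against -0.036 for all genes. Of the 33 members, 24 lay below 0 (72.7%), where 56.9% of all genes did. These were 21 of the 23 that lay below 0 before, with Rab1b, Rab4b and Rab5c in addition, while Rab27a and Rab21 moved above it. The log2 fold changes of Rab11a and Rab8b became -0.13 and -0.091. For the pairs, the difference of the fitted log2 fold changes, which are on the log2(FPKM + 1) scale, was compared before and after. It went from -0.66 to -0.29 between Rab5a and Rab5c, from -0.56 to -0.10 between Rab1a and Rab1b, and from -0.28 to -0.10 between Rab5b and Rab5c. Between Rab11a and Rab11b it went from -0.58 to -0.35, and between Rab6a and Rab6b from -0.68 to -0.50.

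**Figure D5:**
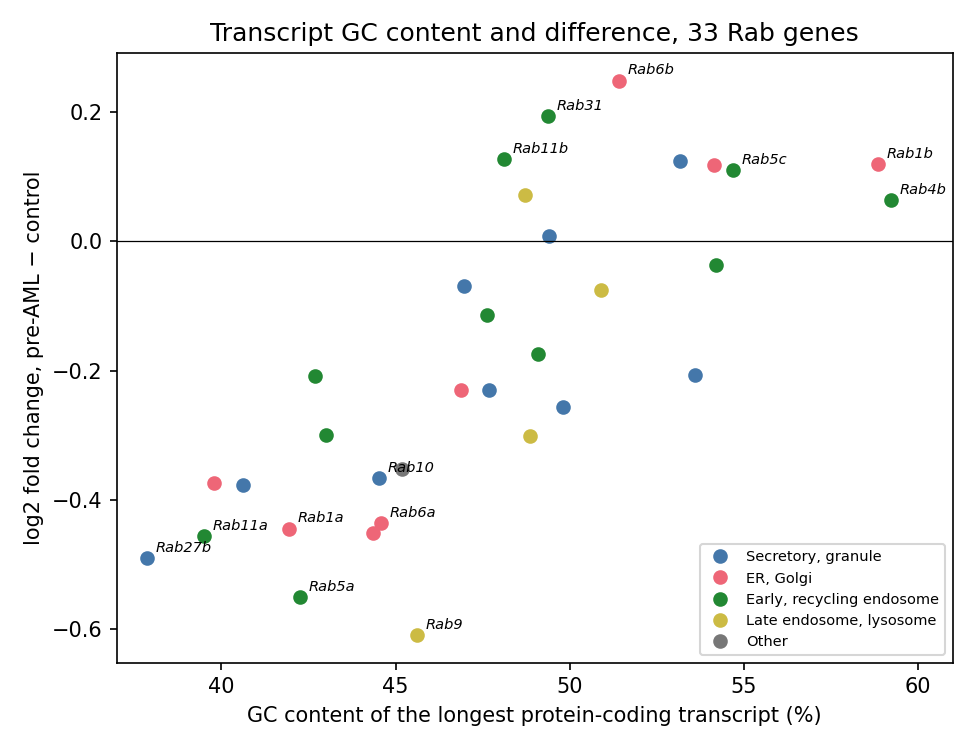
GC content of the longest protein-coding transcript (x axis, percent) against the log2 fold change between pre-AML and control platelets (y axis) for the 33 tested Rab genes, coloured by compartment. Every gene with no more GC than Rab27a, at 47.0%, lies below 0, and Rab1b, Rab4b and Rab5c, with 58.9%, 59.2% and 54.7% GC, lie above it.

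The gene of Rab11a (Entrez gene 53869) spans positions 64715299 to 64737758 of chromosome 9 in GRCm38 (minus strand), and that of Rab5a (271457) spans 53479234 to 53507680 of chromosome 17 (plus strand). Rab9 (56382) spans 166457253 to 166479867 of the X chromosome (minus strand), and Rab1a (19324) 20201432 to 20226856 of chromosome 11 (plus strand). The values count reads over whole genes. The estimated reads of Rab5a were 278 to 439 in controls and 243 to 363 in pre-AML libraries, and those of Rab9 were 167 to 209 and 142 to 157, so counting error is larger for these than for Rab11a with at least 12429 reads in every library. Exons of another annotated gene overlapped those of 20 members, and the protocol keeps no strand.

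The 20 members below the test limit were rare transcripts, the highest single value being 1.45 FPKM for Rab40b in control 2. A total of 5 of them, Rab17, Rab19, Rab33a, Rab39 and Rab3b, were listed at 0 in all controls. Estimated reads in pre-AML 3 were 29 for Rab19, 8 for Rab33a, 7 for Rab39 and 14 for Rab3b, while these genes had at most 1 read in pre-AML 1 and 0 in pre-AML 2. Rab17 was lowest in pre-AML 3, with 3, 3 and 1 reads in pre-AML 1 to 3. All pre-AML libraries lay above all controls in FPKM for Rab17, Rab24 and Rab34, and below all controls for Rab39b. Rab39b had 0.276, 0.376 and 0.297 FPKM in controls and 0.199, 0.0780 and 0.164 FPKM in pre-AML libraries. How often these patterns, or a 0 in all controls, occurred among all genes below the limit was not counted. They are therefore not read as a result about the family. Rab24 had 1, 1 and 2 reads in controls and 3, 10 and 18 in pre-AML libraries. Prelid1 on the opposite strand shares 62.4% of its exon bases, and reads from the overlap cannot be assigned with certainty. Rab34 had 1, 0 and 1 reads in controls and 5, 2 and 18 in pre-AML libraries. Rab7b, a second late endosome GTPase known from macrophages, had 14, 15 and 2 reads in controls, then 11, 5 and 77 in pre-AML 1 to 3. Rab20, of endosomes and phagosomes, had 0, 1 and 0 reads in controls and 8, 0 and 18 in pre-AML libraries. Pre-AML 3 held the highest value of 10 of these 20 genes (50.0%), and of 43.2% of all genes below the limit. It is also the library with the most reads and with all monocyte, macrophage and B cell markers above every control, and their part in these values was not tested. For a transcript of 2 kb, 0.0643 to 0.128 FPKM stands for 3 reads, depending on the library, and smaller differences are not detectable at this depth.

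The partners of the Rab cycle were read from lists of prenylation and recycling factors, GEFs, GAPs and effectors, of which 131 genes were in the table and 42 were tested. No gene of them passed the limma-trend test after adjustment, and at an unadjusted p under 0.05, 3 were lower and 0 were higher (7.14% lower, where 6.53% of all genes were). Their median log2 fold change was -0.051, near that of all tested genes. By list, 1 of 9 GAPs, 2 of 10 effectors, 0 of 18 GEFs and 0 of 5 prenylation and recycling factors were lower at that p. Rabgap1l, a GAP, had 28.2 ± 3.26 FPKM in control against 17.7 ± 4.73 FPKM in pre-AML platelets (SD, n = 3 each), a log2 fold change of -0.67 (SE 0.21, limma-trend adjusted p = 0.522), or -0.44 without pre-AML 3. Exoc6, a subunit of the exocyst that binds Rab proteins of exocytosis, had a log2 fold change of -0.65, or -0.42 without pre-AML 3, and Uso1, a Golgi tether bound by Rab1, one of -0.42. Without pre-AML 1 the count of lower genes was 5, and without control 3 it was 1, where 10.1% and 4.47% of all tested genes were lower.

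The genes described next act on Rab proteins in general, and none passed the test. Gdi2, which encodes a dissociation inhibitor that extracts GDP-bound Rab proteins from membranes, had 38.5, 42.6 and 44.0 FPKM in controls with 23.2 to 40.1 FPKM in pre-AML libraries, where pre-AML 1 lay among the controls. Its log2 fold change was -0.37 (95% confidence interval from -0.83 to 0.090). It was -0.15 without pre-AML 3 and -0.073 once length and GC trends were taken out. Rabac1, a membrane protein that binds prenylated Rab proteins, was the most abundant of this list. It had 150.4 ± 9.44 FPKM in control against 186.1 ± 23.4 FPKM in pre-AML platelets (SD, n = 3 each). Its log2 fold change was 0.30 with an interval from -0.0295 to 0.63. It was 0.41 without pre-AML 3 and 0.065 once length and GC trends were taken out. Rabggtb, a subunit of the geranylgeranyl transferase, had 1.70 ± 0.208 and 1.22 ± 0.465 FPKM (SD, n = 3 each). Chm, for the escort protein, and Rabggta were below the test limit.

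Of the listed effectors of Rab27, Unc13d and Sytl4 passed the limit of the test, and Sytl1, Sytl2, Sytl3, Sytl5, Mlph, Myrip, Exph5 and Rph3al did not. Unc13d, which encodes the Rab27 effector Munc13-4 needed for granule release, had 23.2, 24.7 and 25.6 FPKM in controls and 23.3, 26.7 and 24.1 FPKM in pre-AML libraries. These values overlapped throughout, and the log2 fold change was 0.0097 with an interval from -0.28 to 0.30. Sytl4, which encodes another Rab27 effector, granuphilin, had 35.1, 35.9 and 46.9 FPKM in controls and 38.9, 36.9 and 29.1 FPKM in pre-AML libraries, a log2 fold change of -0.16. It was -0.039 without pre-AML 3 and -0.032 without control 3. Hps4, for a subunit of the GEF of Rab32 and Rab38, had 1.92 ± 0.229 and 2.48 ± 0.427 FPKM (SD, n = 3 each), a log2 fold change of 0.25 with an interval from -0.12 to 0.62. Its partner Hps1 was below the limit, at 0.746 ± 0.0876 FPKM in control against 1.03 ± 0.0488 FPKM in pre-AML platelets (SD, n = 3 each). Dennd4a, which encodes a GEF of Rab10, had a log2 fold change of -0.34 and the smallest p of the GEFs.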

How the data were processed

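RNA-seq of platelets from 3 control and 3 pre-AML samples was used. Per the submitters' processing notes, the authors used STAR, DESeq2 and mm10, and they deposited FPKM values for 14975 genes. The counting program and annotation are not given in the sources used here. Columns were assigned to samples by name, with 0 columns of values left over.

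Gene lengths, GC content and coordinates came from GENCODE release M21 (GRCm38), which held 14912 of the genes. FPKM times length, divided by its step for 1 read, was whole within 0.02 for 82.2% to 83.5% of values of 1 to 200 reads, and for all 6 libraries in 45 members. The FPKM of pre-AML 3 had been divided by 1.31 times its recovered reads, against 0.983 to 1.01 times in the other libraries.

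Values were tested as log2(FPKM + 1) where the mean over the libraries reached 1 FPKM, with limma-trend (limma 3.58.1, R 4.3.3), no covariates and Benjamini-Hochberg adjustment over all tested genes at 0.05. A fold change on this scale understates that of low genes. Ratios of paralogues were compared in Python 3.11.15 (scipy 1.17.1). The fit was also run on simulated counts with known changes. Those changes were larger than any found for the tested Rab genes, so the simulation does not measure the power to detect these. Trends with length and GC content were removed by loess (span 0.5).

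The members and lists were chosen with earlier results of these data known. Genes named were the 8 highest members, the 8 with the smallest p, members with a known role in platelet granules, paralogue groups, and for partners the smallest p of each list and 8 general or Rab27-related factors. One further gene of the rule is not reported here. Rab4b, Rab7b, Rab19, Rab20, Rab31, Rab33a, Rab39, Rab39b, Rab3b, Rab17, Rab21, Rab24, Rab34, Rab40b, the Rab27 effectors below the limit, Uso1 and the Rab2 and Rab8 pairs were singled out after their values were seen. Intervals and read limits cover counting error or library spread only. Same-numbered libraries of the groups had correlated deviations of -0.043, -0.12 and -0.17 and were not treated as pairs.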

Additional observations from a re-analysis of the deposited data

How the results depend on the processing

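The count of 0 Rab genes after adjustment held in all 15 alternatives, and over these the adjusted p of 29 named genes was between 0.307 and 0.999. The median log2 fold change of the members stayed below 0 in each. It moved by more than the spread between libraries to -0.037 with no filter, -0.097 with limma-voom and -0.092 with length and GC trends removed and pre-AML 3 left out, a setting added after seeing the data. Lower members at an unadjusted p under 0.05 numbered 7 with library size only, with at least 1 FPKM in every library and with limma-voom, 1 with length and GC trends removed and 2 with pre-AML 3 left out as well. In that order, the shares of lower genes among all tested were 5.67%, 9.24%, 5.89%, 3.68% and 3.18%. Higher members numbered 1 with library size only, with limma-voom and with trends removed without pre-AML 3, and 3 with no filter. The shares of higher genes among all tested were 5.62%, 5.25%, 3.16% and 3.32% in these settings. Leaving out single libraries gave 3 to 11 lower members, the highest without pre-AML 1, and 0 higher ones, while the share of lower genes among all tested ranged from 2.99% to 10.1%, the latter also without pre-AML 1.

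For the partners, 1 was higher with library size only, quantile normalization, limma-voom and trends removed without pre-AML 3, and 2 with no filter. In that order, 5.62%, 4.24%, 5.25%, 3.16% and 3.32% of all tested genes were higher. Lower partners numbered 5 with no filter and 0 with trends removed without pre-AML 3, against 2.49% and 3.18% of all tested genes. Leaving out libraries gave 0 to 1 higher and 1 to 5 lower partners. The shares of all tested genes were then 1.56% to 4.53% higher and 2.99% to 10.1% lower. The causes were not tested. With the replicate number as a block, there were 4 lower members and 2 lower partners, with 0 after adjustment, where 5.76% of all tested genes were lower. The numbers are shared labels only, and no sample correlated above 0.1 with its own number.

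Of the 29 named genes, 18 kept their direction in every alternative. With trends removed, Rab1b was at -0.092, Rab27a at 0.039, Rab5c at -0.021 and Unc13d at -0.17. With pre-AML 3 left out too, Rab11a was at 0.0050, Rab1b at -0.075, Rab5b at 0.047, Rab8a at -0.15, Gdi2 at 0.0029, Sytl4 at 0.041 and Unc13d at -0.10. Rab27a was at 0.026 with library size only, and Rab8a at -0.0093 with quantile normalization. Over single libraries left out, the range was -0.41 to 0.21 for Rab27a, -0.44 to 0.087 for Rab32, -0.30 to 0.0075 for Rab5b, -0.0011 to 0.14 for Rab7, -0.18 to 0.14 for Rab8a and -0.046 to 0.050 for Unc13d. Depth limits the 20 members below 1 FPKM most.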
